A study of Mus musculus with 24 samples.

Results

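Whole adrenal glands of female Kcnk3 null mice were profiled after testosterone injection (3 arrays) or after sham treatment (3 arrays), and these 6 arrays, chosen by genotype, sex and treatment in the sample descriptions, are described here out of 24 arrays in all. All mice were C57BL/6, and the null animals (T1 KO in the labels, after the channel TASK1) carry a null Kcnk3 in both groups, so the comparison holds the genotype fixed. Testosterone-injected WT females, sham WT females, sham null males and castrated null males, with 3 arrays each, are drawn on only where they show how the null female response differs or recurs. The remaining groups are sham and castrated WT males. The labels give no dose or duration of testosterone, no age, and no statement of whether each array holds the glands of 1 animal, so p-values measure the spread between these samples. Total RNA was labelled with Cy3 and hybridised one sample to an array.

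Kcnk3 encodes TASK1, a tandem-pore-domain potassium channel that carries background potassium current and helps to hold adrenocortical cells at a negative resting potential. The mouse adrenal cortex makes aldosterone in its outer zona glomerulosa and corticosterone in the zona fasciculata beneath it, and has an inner X-zone that regresses in males at puberty and can be made to regress with androgen. In mice lacking TASK1, disturbed cortical zonation has been described in females, and androgens are known to modify it. Testosterone is the main androgen of the testis and acts on transcription in its target cells.

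Among the features that passed the test, more fell than rose with testosterone. Of 31086 probes or genes (features) tested, 65 were called at an adjusted p under 0.05 (limma, Benjamini-Hochberg), which is 0.209% of all features. The 9 called features that rose make up 0.029% of all features, and the 56 that fell make up 0.18%. This split varied with the arrays and the fit. Without testosterone array 1, which carries liver transcripts, 69 features were called, 27 of them higher. Without sham array 3, 53 were called, 2 of them higher, and with array weights 193 were called, 61 of them higher. All 65 had testosterone arrays that did not overlap the sham arrays, against 8.68% of all features (2.71% with testosterone higher and 5.98% with it lower). A level below is the log2 of the scanner's processed signal minus the log2 of that array's 75th percentile, and a difference is testosterone minus sham, with its standard error. The median difference over all features was -0.03. When the slide on which each testosterone array was hybridised beside a sham array was taken into account as a block, 150 features were called, 65 of them shared with the 65 called without it, and with the replicate number as a block 121 were called, again including all 65. A fit of only these 6 arrays called none after adjustment, with 1159 features, including all 65, at an unadjusted p under 0.05, while the fit used here called 65 and had 1912 at that level.

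**Figure D1:**
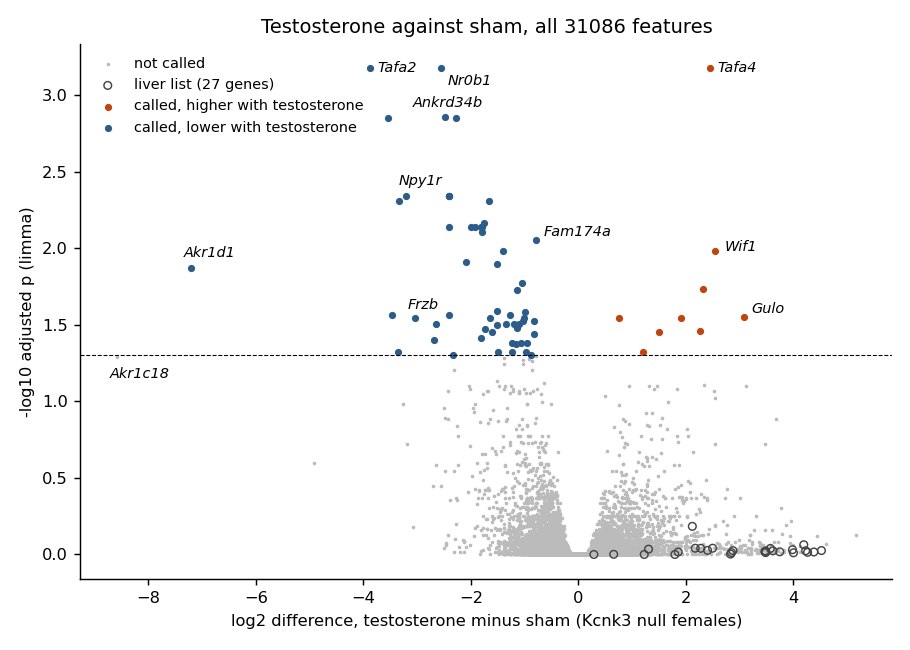
Each point is 1 of 31086 features, with the log2 difference between testosterone and sham null females across and -log10 of the limma adjusted p upwards, and a dashed line at 0.05. Features above the line are 9 that rose (red) and 56 that fell (blue), and the 27 liver genes (open circles) all lie right of 0 and below the line.

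The samples carried the transcripts of their labelled tissue. Star levels lay between 7.20 and 7.68 on the testosterone arrays, against 7.35 to 7.57 on the sham arrays, and Th, the rate-limiting enzyme of catecholamine synthesis in the medulla, lay between 3.70 and 5.52, against 4.90 to 5.67. Testosterone array 1 also carried liver transcripts. The 27 liver genes, summed on the linear scale in multiples of the array's 75th percentile, came to 2709 on testosterone array 1 and to 105 and 57.8 on testosterone arrays 2 and 3, against 84.8, 110 and 49.9 on the sham arrays. All 27 were well above background on testosterone array 1. The liver albumin gene Alb stood at 8.29, -0.14 and -3.51 with testosterone, against -0.93, -7.61 and -0.40 with sham. None of the 27 was called. T and B cell genes were also highest on that array, with a sum of 23.0, and 5.5 and 9.3 on the other testosterone arrays, against 6.1, 5.8 and 8.5 with sham. RNA integrity numbers moved with treatment, at 7, 6 and 5 with testosterone, against 8, 7 and 7 with sham. With the integrity number as a covariate 58 features were called, 49 of them among the 65. Of the 56 called features with a gene symbol, 40 kept their call with this covariate. Of those described below, Ecrg4, Serpinb1c and Timp3 (adjusted p = 0.053 each), Clic6 and Kcnd2 (0.054 each), Ajap1 (0.061), Inava (0.063), Cma1 (0.072) and Nrep (0.086) did not. Without testosterone array 1 and the one sham WT male array that also carried liver transcripts, 73 features were called, 30 of them higher and 42 of them among the 65. In that fit 36 of the 56 genes kept their call. Of those described below, Macc1 (adjusted p = 0.053), Aldh1a1 (0.065), Inava (0.083), Aldh3b1 (0.086), Sema5a (0.091), Gpha2 (0.096), Nrep (0.106), Timp3 (0.109), Serpinb1c (0.13) and Kcnd2 (0.156) did not.

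**Figure D2:**
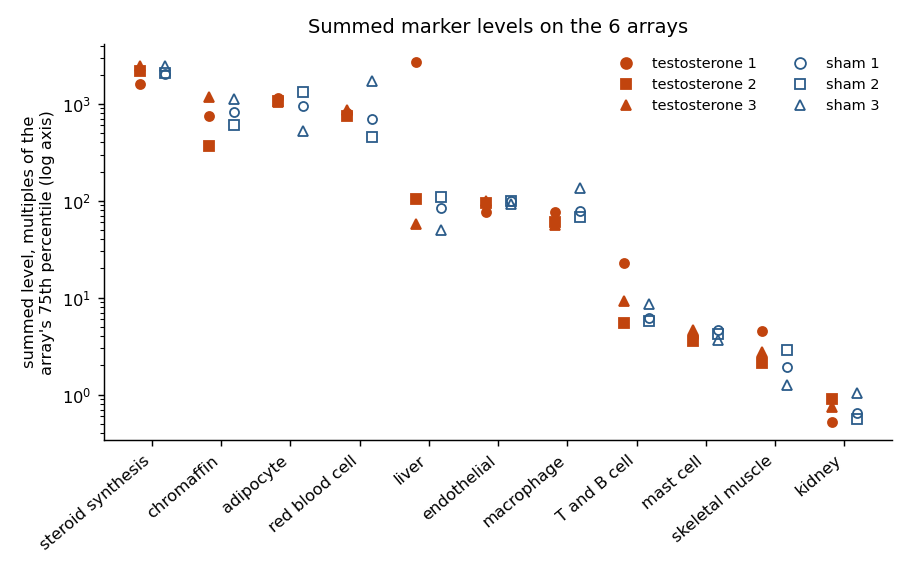
Summed linear levels of 11 marker lists on the 6 arrays (log axis), with testosterone arrays as filled red symbols left of the sham arrays as open blue symbols. The liver list stands at 2709 on testosterone array 1 and between 49.9 and 110 on the other 5 arrays.

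The targeted gene was measurable in all 6 null glands. The Kcnk3 probe (mm9, chr5:30927090-30927149, plus strand) stood at 2.08, 3.01 and 2.26 with testosterone, against 4.49, 4.18 and 3.19 with sham, with no overlap. This was 5.63%, 10.67% and 6.34% of the WT sham female mean with testosterone, and 29.9%, 24.0% and 12.1% of it with sham. The difference was -1.50 ± 0.32 and did not pass the test (limma adjusted p = 0.0734), but it passed with the slide as a block (adjusted p = 0.0098) and not without the arrays that carry liver transcripts (-1.32, adjusted p = 0.176). The labels do not say which part of the gene is deleted, so the probe may lie outside it and is no check of the genotype. Of the 10 tandem-pore-domain channel genes measured, none passed the test in the fit without a block. Kcnk1, whose product is the related channel TWIK1, differed by 1.55 (adjusted p = 0.128, and 0.035 with the slide as a block), and Kcnk9, the gene of TASK3, by 1.02 (adjusted p = 0.315, and a difference of 1.55 with adjusted p = 0.0029 without the arrays that carry liver transcripts).

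Secreted signals and receptors were among the genes that fell. Tafa2, a secreted chemokine-like protein known mainly from the nervous system, stood at -3.08, -3.19 and -2.52 with testosterone, against 0.99, 0.12 and 1.74 with sham (probe at mm9, chr10:123177891-123177950). The highest testosterone array lay well under the lowest sham array, and the difference of -3.88 ± 0.44 (limma adjusted p = 6.7e-04) made Tafa2 14.7-fold lower. Npy1r, a receptor for neuropeptide Y, stood at -1.18, -1.70 and -1.90 with testosterone, against 2.51, 1.61 and 0.75 with sham, a difference of -3.21 ± 0.46 (adjusted p = 0.0046). The Npy1r probe lies at mm9, chr8:69230632-69230691. Ndnf, a secreted neurotrophic factor, was well above background on 1 testosterone array and 3 sham arrays, at -5.46, -5.56 and -5.61, against -2.77, -3.19 and -3.44. Its difference was -2.41 ± 0.37 (adjusted p = 0.0073), and it ranged from -2.57 to -0.73 over the alternative fits. Gpha2, the alpha subunit of the hormone thyrostimulin, stood at 2.37, 3.06 and 3.37 with testosterone, against 4.80, 4.67 and 3.87 with sham, and differed by -1.51 ± 0.27 (adjusted p = 0.026, and -1.23 with adjusted p = 0.096 without the arrays that carry liver transcripts). Bdnf, another neurotrophic factor and named here after its values were seen, stood at -5.12, -6.56 and -5.45 with testosterone, against -3.27, -3.50 and -3.08 with sham. Its difference of -2.43 ± 0.54 did not pass the test (adjusted p = 0.086) and passed with the slide as a block (adjusted p = 0.0023).

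Among genes with other roles, Ankrd34b, a cytoplasmic ankyrin-repeat protein, fell without overlap. Its levels were -2.28, -1.78 and -2.50 with testosterone, against 0.68, 0.36 and -0.16 with sham, a difference of -2.48 ± 0.31 (limma adjusted p = 0.0014). Macc1, which in human cancer cells promotes expression of the growth factor receptor MET, was not well above background on any testosterone array and was so on all 3 sham arrays, at -2.93, -3.81 and -2.40. Set against the lowest signal that counts as above background, it was at least 5.57-fold lower (adjusted p = 0.027, and 0.053 without the arrays that carry liver transcripts). Rcan2, a regulator of the phosphatase calcineurin, stood at 0.26, 0.04 and 0.18 with testosterone, against 2.98, 2.16 and 1.30 with sham, and differed by -1.99 ± 0.31 (adjusted p = 0.0073). The sham arrays of Rcan2 spread more widely than its testosterone arrays, and every one of them was higher. These genes and the secreted signals overlap a list of 13 genes chosen on these arrays for a high level in null glands. Of the 13, 6 fell and none rose, with a median difference of -2.24, against -0.03 over all features. Because that list was chosen on data that include the sham arrays used here, its count is a description and supports nothing.

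Serpinb1a, Serpinb1b and Serpinb1c, neighbouring clade B serpins of mouse chromosome 13 that inhibit proteases inside cells, all fell. Serpinb1a stood at 4.05, 3.80 and 3.34 with testosterone, against 7.51, 6.87 and 6.81 with sham, and differed by -3.33 ± 0.49 (limma adjusted p = 0.0049). Serpinb1c stood at -2.54, -2.57 and -1.18, against 1.36, 0.30 and 2.12, and differed by -3.36 ± 0.68 (adjusted p = 0.048). Serpinb1b stood at -3.13, -3.45 and -3.46, against -0.67, -0.68 and -1.49, and differed by -2.40 ± 0.43 (adjusted p = 0.027). The 60-base probes of these genes share no run of bases longer than 7. Without the arrays that carry liver transcripts Serpinb1a and Serpinb1b passed the test and Serpinb1c did not (adjusted p = 0.13). P3h2, a prolyl hydroxylase of collagen, stood at -3.97, -3.20 and -3.56, against -0.60, -1.23 and -1.67, and differed by -2.41 ± 0.34 (adjusted p = 0.0046). Timp3, an inhibitor of matrix metalloproteinases, differed by -0.82 ± 0.16 (adjusted p = 0.036), a call lost without the arrays that carry liver transcripts (adjusted p = 0.109) and with the RNA integrity number as a covariate (0.053). Lama4, a laminin chain of basement membranes, differed by -1.05 ± 0.18 (adjusted p = 0.017). Of 18 fibroblast and matrix genes listed, which hold the collagens, none passed the test, and their median difference was -0.17.

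**Figure D3:**
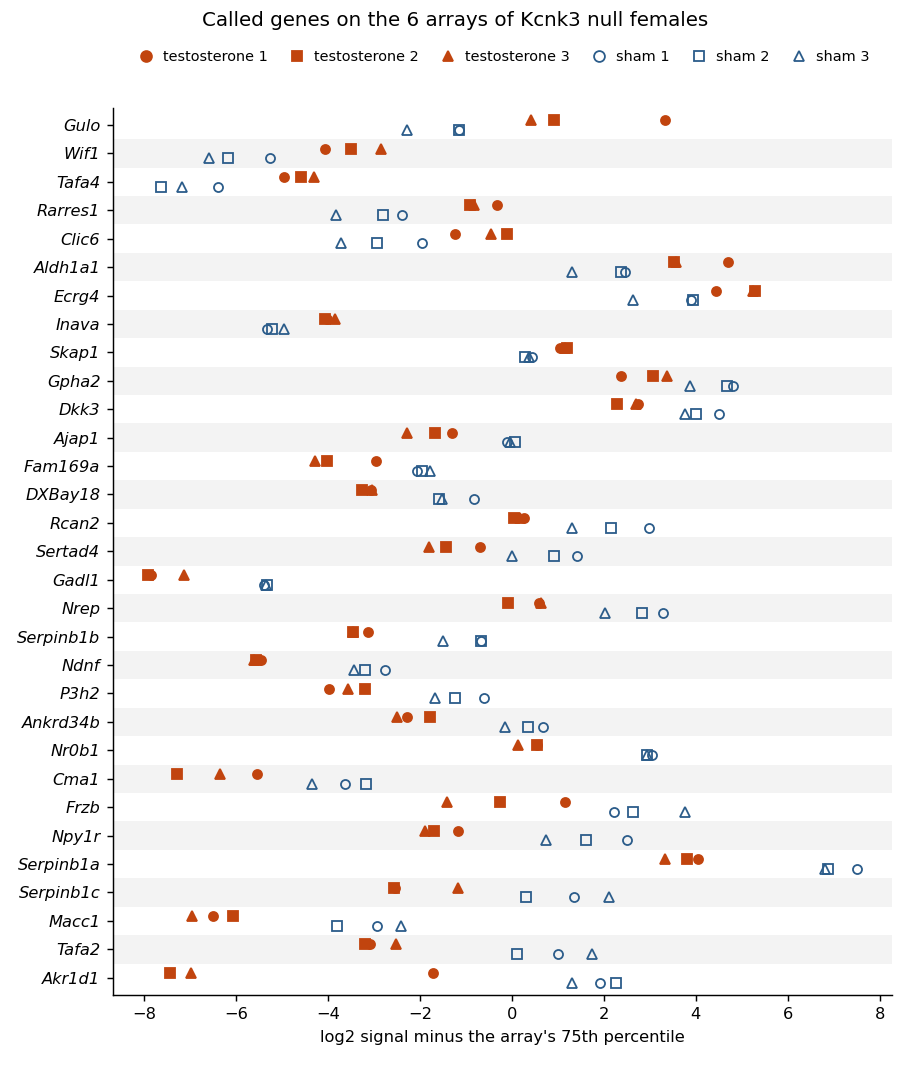
Levels of 31 called genes on each of the 6 arrays, with testosterone arrays (filled red) above sham arrays (open blue) in each row and rows ordered from the largest rise to the largest fall. The arrays of the groups do not overlap in any row, and Akr1d1 and Gulo have testosterone array 1 apart from the other testosterone arrays.

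Among regulators of steroid-producing cells, Nr0b1 fell. It encodes DAX1, an orphan nuclear receptor that represses transcription driven by Nr5a1 and is needed for normal human adrenal development. Its probe (mm9, chrX:83441169-83441228) stood at 0.55, 0.56 and 0.13 with testosterone, against 3.04, 2.93 and 2.94 with sham, and the difference was -2.56 ± 0.28 (limma adjusted p = 6.7e-04), 5.89-fold lower. Nr5a1 itself stood at 5.74, 6.03 and 5.57, against 6.12, 6.18 and 6.15 (-0.37 ± 0.26, adjusted p = 0.977).

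Steroid-metabolising enzymes and X-zone genes included the largest negative differences of the comparison. Akr1d1, steroid 5-beta-reductase, which is also abundant in liver, stood at -1.73, -7.45 and -6.97 with testosterone, against 1.92, 2.27 and 1.30 with sham. The only testosterone array well above background was array 1, which carries the liver transcripts. The difference was -7.21 ± 1.20 (limma adjusted p = 0.013), and -9.04 (adjusted p = 3.0e-05) without the arrays that carry liver transcripts. Akr1c18, the 20-alpha-hydroxysteroid dehydrogenase that degrades progesterone and marks the X-zone, had the largest difference of any feature. It stood at -3.78, -3.23 and -3.16 with testosterone, against 6.69, 6.02 and 2.85 with sham. The difference of -8.58 ± 1.75 missed the threshold (adjusted p = 0.051) and passed with the slide as a block (adjusted p = 0.034). Akr1c18 was named after its values were seen. Pik3c2g, a lipid kinase of the X-zone, was not above background on any testosterone array and stood at -0.52, -1.51 and -3.85 with sham (adjusted p = 0.251). Of the 5 X-zone genes measured, 1 fell and none rose, with a median difference of -4.91, while 0.18% of all features were called as lower. In whole glands, fewer cells of a type and less RNA per cell cannot be told apart.

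Genes of steroid synthesis did not pass the test in either direction. Of the 16 measured, from the cholesterol carrier Star to the terminal hydroxylases, none rose and none fell, and the median difference was -0.12, or 0.02 without the arrays that carry liver transcripts. Cyp11b2, aldosterone synthase, stood at -0.06, 0.94 and -0.54 with testosterone, against 1.90, 0.55 and 0.84 with sham, with overlapping groups and a difference of -0.98 ± 0.49 (limma adjusted p = 0.832). Cyp11b1, the hydroxylase that completes corticosterone, stood at 7.72, 8.17 and 8.18, against 8.06, 8.10 and 8.42 (-0.17 ± 0.16). Cyp17a1 stood at 1.78, 3.22 and 5.53, against 1.94, 2.19 and 3.91. Of 15 zona glomerulosa genes none passed the test, with a median of 0.21. Oxtr, the oxytocin receptor gene, differed by -2.26 ± 0.55 (adjusted p = 0.146, and 0.037 with the slide as a block). Of 8 zona fasciculata genes 1 fell (Frzb, described with the Wnt genes), of 28 genes of cholesterol synthesis, uptake and storage none passed, and of 21 genes of corticotropin and cyclic AMP signalling none passed. The same held for the 12 genes of the renin-angiotensin system and the 23 of membrane potential and calcium handling. With 3 arrays a group, a gene without a call is not thereby shown to be unchanged. In simulated data on the same number of features, 29 of 100 genes changed by 1 on the log2 scale were recovered. Of 100 changed by 2, 79 were recovered. In all, 108 calls had the right direction and 9 were false. Whether recovery was the same on these arrays was not tested.

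Secreted modulators of Wnt signalling moved in both directions. Wnt ligands act on the outer cortex, and the proteins below act on the ligands or their receptors, or belong to families that do. Of 31 Wnt pathway genes measured, 1 rose and 2 fell, with a median difference of 0.02, and 1 rose and 4 fell without the arrays that carry liver transcripts. Over all features, 0.029% were called as higher and 0.18% as lower with all arrays. Wif1, a secreted Wnt-binding inhibitor, rose: it stood at -4.06, -3.50 and -2.85 with testosterone, against -5.27, -6.17 and -6.59 with sham, where it was well above background on 1 array (2.54 ± 0.41, limma adjusted p = 0.0105). Frzb, a secreted frizzled-related protein, fell: it stood at 1.14, -0.27 and -1.41, against 2.21, 2.62 and 3.76 (-3.04 ± 0.56, adjusted p = 0.029). Dkk3, a divergent member of the Dickkopf family, fell: it stood at 2.74, 2.28 and 2.69, against 4.50, 3.99 and 3.78 (-1.52 ± 0.25, adjusted p = 0.013). Each of these calls was lost in some fit with 1 of the 6 arrays left out. The highest adjusted p in such fits was 0.085 for Wif1, 0.155 for Frzb and 0.099 for Dkk3. Sfrp4, another frizzled-related protein, had a difference of -1.02 ± 0.21 and missed the threshold (adjusted p = 0.054, 0.012 with the slide as a block, and 0.043 without the arrays that carry liver transcripts). Sfrp1, of the same family, differed by -0.73 ± 0.19 (adjusted p = 0.214), and by -0.96 (adjusted p = 0.049) without those arrays. The ligand Wnt4 differed by -0.43 ± 0.24 (adjusted p = 0.891). The 16 capsule and hedgehog genes had no call and a median of -0.32, with Gli2 and Gli1, transcription factors of that pathway, at -2.42 (adjusted p = 0.131, and 0.034 with the slide as a block) and -1.39 (adjusted p = 0.198).

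The 9 rises were Gulo, Wif1, Tafa4, Rarres1, Clic6, Aldh1a1, Ecrg4, Inava and Skap1. Gulo, L-gulonolactone oxidase of vitamin C synthesis and abundant in mouse liver, stood at 3.32, 0.91 and 0.42 with testosterone, against -1.16, -1.15 and -2.29 with sham. The highest value is on the array with liver transcripts, and the difference of 3.08 ± 0.56 (limma adjusted p = 0.028) was 2.20 (adjusted p = 0.0087) without the arrays that carry them. Aldh1a1, which oxidises retinaldehyde and is also abundant in liver, stood at 4.71, 3.54 and 3.58, against 2.45, 2.37 and 1.30. Its difference was 1.90 ± 0.35 (adjusted p = 0.029), and 1.52 (adjusted p = 0.065) without those arrays. Tafa4, a secreted relative of Tafa2, was well above background on 3 testosterone arrays, at -4.95, -4.58 and -4.30, and on no sham array. It was at least 1.68-fold higher (adjusted p = 6.7e-04). A second Tafa4 probe, dimmer on average, differed by 0.24 and was not called. Rarres1, a retinoic acid responsive gene, stood at -0.32, -0.92 and -0.81, against -2.39, -2.81 and -3.83 (2.33 ± 0.40, adjusted p = 0.018). Clic6, of the chloride intracellular channel family, stood at -1.24, -0.10 and -0.45, against -1.95, -2.93 and -3.71 (2.27 ± 0.43, adjusted p = 0.035, and 0.054 with the RNA integrity covariate). Ecrg4, the precursor of the secreted peptide augurin, stood at 4.43, 5.29 and 5.24, against 3.89, 3.93 and 2.63 (1.50 ± 0.29, adjusted p = 0.035, and 0.053 with that covariate). Skap1, an adaptor of T cell receptor signalling, rose by 0.76 ± 0.14 and Inava, a regulator of innate immune signalling, by 1.20 ± 0.24. The call of Inava was lost without the arrays that carry liver transcripts (adjusted p = 0.083) and with the covariate (0.063). A list of 12 genes low in null glands, chosen on these arrays and so supporting nothing, held 5 of the rises and no fall, with a median of 1.39.

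The remaining decreases covered several roles. Cma1, mast cell chymase, was well above background on 1 testosterone array and 3 sham arrays, at -5.55, -7.29 and -6.35, against -3.63, -3.18 and -4.34 (-2.68 ± 0.52, limma adjusted p = 0.040, and 0.072 with the RNA integrity covariate). Of 8 mast cell genes measured, Cma1 fell and no other passed the test, while 0.18% of all features were called as lower. Their summed level was 3.9, 3.6 and 4.6 with testosterone, against 4.6, 4.3 and 3.7 with sham. Nrep, a neuronal regeneration-related protein, stood at 0.58, -0.08 and 0.63, against 3.29, 2.83 and 2.03 (-2.34 ± 0.47, adjusted p = 0.0496). Its adjusted p was 0.106 without the arrays that carry liver transcripts and 0.086 with the covariate. Gadl1, an acidic amino acid decarboxylase, was well above background on no testosterone array and on 2 sham arrays, and was at least 1.12-fold lower (adjusted p = 0.0014). Ajap1, a junction-associated protein, fell by 1.73, Sertad4 by 2.09 and Fam169a by 1.82 on the log2 scale. Smaller falls included Kcnd2, a voltage-gated potassium channel (-0.88), and Sema5a, a semaphorin (-0.82), neither called without the arrays that carry liver transcripts (adjusted p = 0.156 and 0.091). Others were Adgrb1, an adhesion receptor (-1.15), and Fam174a (-0.79), whose sham arrays lay between 3.25 and 3.26 and testosterone arrays between 2.37 and 2.56. DXBay18, Gm5640 and Gm8617, transcripts of the X chromosome, fell by 1.82, 1.75 and 1.92. The probe of Gm5640 shares runs of 46 bases with that of Gm8617 and 31 bases with that of DXBay18, so these 3 cannot be told apart with certainty.

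Of the 65 called features, 9 had no gene symbol, and all 9 fell. Among them were 3 probes for long intergenic RNAs. The one with the largest difference is a probe for a long intergenic RNA on the forward strand of chromosome 1 (mm9, chr1:138579991-138580050), whose level was -3.52, -3.21 and -3.78 with testosterone, against 1.05, -0.33 and -0.63 with sham (-3.53 ± 0.45, limma adjusted p = 0.0014). Another lies on chromosome 16 (mm9, chr16:13759868-13759927), at -6.20, -5.90 and -7.17 with testosterone, where it was not well above background on any array, against -4.78, -4.73 and -4.38 with sham. It was at least 1.86-fold lower (adjusted p = 0.0078). The other such probe lies on chromosome 8 (mm9, chr8:85614237-85614296), at -3.67, -3.62 and -4.12 with testosterone, against -2.71, -2.89 and -2.83 with sham (-0.99 ± 0.18, adjusted p = 0.026). The 60-base probes on chromosomes 1 and 8, which are the only identity these transcripts have on the array, are given in lower case as deposited:
lincRNA probe on chromosome 1: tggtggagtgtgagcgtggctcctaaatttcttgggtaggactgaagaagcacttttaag
lincRNA probe on chromosome 8: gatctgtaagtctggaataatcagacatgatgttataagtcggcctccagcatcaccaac

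Null males gave a second androgen contrast with no array in common: sham males, whose testes were present, against castrated males. In that contrast 313 features were called, 1.01% of all features. All 65 features called in null females differed in the same direction in null males, the 56 falls being lower and the 9 rises higher in sham than in castrated null males, against 50.1% of all features with the same sign in both. Of these, 43 were called in both, which is 66.2% of the null female calls and 13.7% of the null male calls. Tafa2 averaged -2.48 in sham and 1.60 in castrated null males (-4.08 ± 0.44, limma adjusted p = 7.4e-05). Clic6 averaged -0.42 and -5.36 (4.94, adjusted p = 1.6e-05), and Tafa4 averaged -4.15 and -7.79 (3.64, adjusted p = 4.0e-06). Tafa4 was not well above background on any castrated null male array, so the size of its difference is uncertain. Nr0b1 averaged 0.61 and 2.57 (-1.96 ± 0.28, adjusted p = 0.0013). Akr1d1 and Frzb, among the largest falls in null females, differed by -0.38 (adjusted p = 1.00) and -0.46 (adjusted p = 0.94) in null males. Kcnk3 differed by 1.27 in null males (adjusted p = 0.073), opposite in sign to null females. On 2 of the 3 sham and 2 of the 3 castrated null male arrays the female transcript Xist stood at 17.4% to 58.0% of the null sham female mean, and the part of this in the result was not tested.

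**Figure D4:**
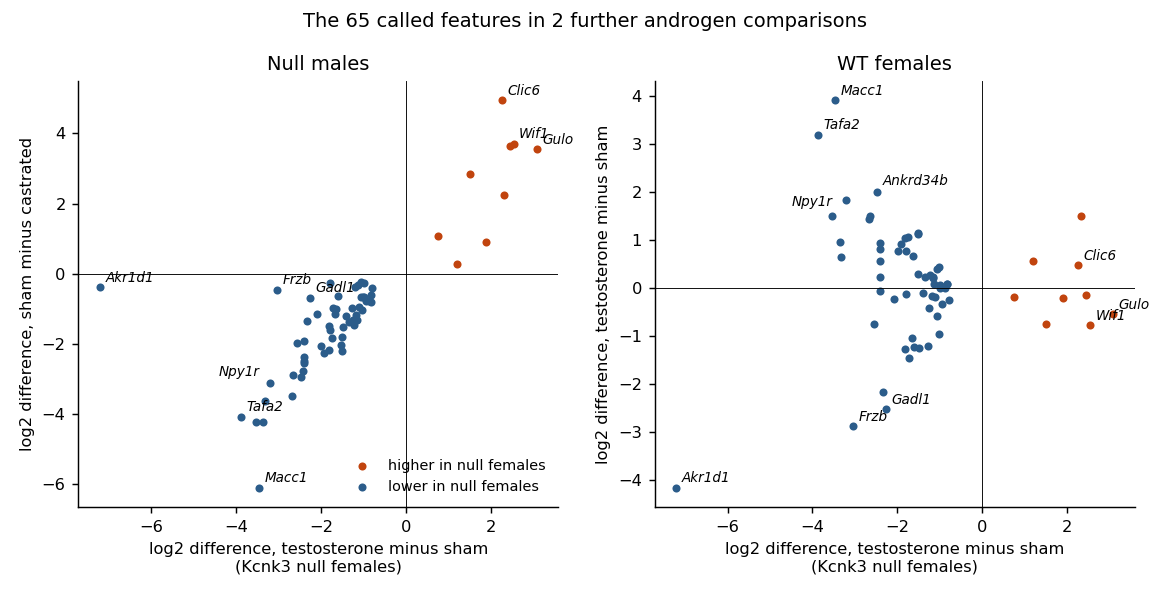
The 65 called features, with the log2 difference in null females across and the difference in null males (left panel, sham minus castrated) or WT females (right panel, testosterone minus sham) upwards. All 65 points share their sign with null males, and 25 of 65 do with WT females.

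WT females injected with testosterone gave a different picture for the same features. Of 31086 features 28 were called in WT females, 0.0901% of all, with 10 higher (0.0322%) and 18 lower (0.0579%), and 4 of these were among the 65, 1 with the same sign. These 4 are 6.15% of the null female calls and 14.3% of the WT female calls. Of the 65, 25 had the same sign (38.5%), against 58.1% of all features. The difference between the responses, null minus WT, was tested directly: 30 features passed, 0.0965% of all, 4 of them more positive (0.0129%) and 26 more negative (0.0836%) in null females, and 23 of them were among the 65. Tafa2 differed by -3.88 in null and by 3.20 in WT females (limma adjusted p = 0.0098 in WT), a difference of -7.08 ± 0.63 between the responses (adjusted p = 3.6e-05). Macc1 differed by 3.92 in WT females (adjusted p = 0.025) and Ankrd34b by 2.00 (adjusted p = 0.019), with differences between the responses of -7.38 ± 0.89 (adjusted p = 0.0013) and -4.48 ± 0.43 (adjusted p = 6.8e-05). Macc1 was not well above background on any testosterone null female or sham WT female array. The sizes 3.92 and -7.38 therefore rest partly on background signal and are uncertain. For Npy1r the difference between the responses was -5.05 ± 0.65 (adjusted p = 0.0017), for Serpinb1a -3.98 ± 0.69 (adjusted p = 0.023), and for Wif1 3.31 ± 0.58 (adjusted p = 0.028). The WT arrays stand apart from their labels in other respects. All 3 testosterone-injected WT female arrays held the Y-linked transcripts Ddx3y and Eif2s3y at 18.8% to 39.4% of the WT sham male mean, and WT sham female arrays 2 and 3 at 21.2% to 54.9%. The 6 null female arrays held at most 0.194%. Abhd1, a neighbour of Kcnk3 that was high in null glands, stood at 20.8% to 40.5% of the castrated null male mean on the testosterone-injected WT arrays, against 4.70% to 8.32% on the sham WT female arrays. Such a level was not limited to arrays with opposing sex-linked signal. Castrated WT male arrays 2 and 3, whose sex-linked transcripts matched their label, stood at 20.1% and 19.3%, and array 1 at 6.53%. The part of these signals in the WT values and in the differences between responses was not tested. Replicate 3 of both WT female groups had an RNA integrity number of 3, the lowest in the series. These arrays lay on slide 4, which held no other array. With the integrity number as a covariate 66 features were called in WT females, including all 28. In that fit 33 differences between responses passed, 28 of them among the 30. With the 9 arrays whose sex-linked signal opposed the label left out, no WT testosterone array remains, and 40 features were called in null females, 23 of them among the 65.

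A smaller group of falls had the same sign in WT females. Gadl1 differed by -2.52 in WT females (limma adjusted p = 0.0017) and was the one feature called in both with the same sign. It was not well above background on any testosterone array of either genotype, so the size of its differences is uncertain. Frzb differed by -2.87 in WT females (adjusted p = 0.052), Akr1d1 by -4.16 (adjusted p = 0.30), Nrep by -2.17 (adjusted p = 0.11), Aldh3b1 by -1.19 (adjusted p = 0.052) and Nudt11 by -0.96 (adjusted p = 0.052). The difference between the responses was -0.17 ± 0.79 for Frzb and -3.05 ± 1.70 for Akr1d1, neither past the threshold (adjusted p = 1.00 for both).

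Group means over the 24 arrays placed the treated null glands among the other groups. Tafa2 averaged -2.93 in testosterone-treated and 0.95 in sham null females, and 0.02 in testosterone-treated and -3.18 in sham WT females. In males it averaged -2.48 in sham and 1.60 in castrated null males, and -2.87 in sham and -2.60 in castrated WT males. High levels of Tafa2 were therefore measured in sham null females, castrated null males and testosterone-injected WT females. Npy1r, Ankrd34b, Macc1, Dkk3 and Rcan2 had the same 3 groups highest. The testosterone-injected WT arrays carried the Y-linked and Abhd1 signals described above, and the part of these in the levels was not tested. Frzb had another order, averaging -0.18 in testosterone-treated and 2.86 in sham null females, 0.64 in testosterone-treated and 3.51 in sham WT females, 1.77 in sham and 2.23 in castrated null males, and -2.55 in sham and 2.89 in castrated WT males. Sham WT males were lowest for Frzb. Wif1 averaged -3.47 in testosterone-treated and -6.01 in sham null females, and -3.37 in sham and -7.08 in castrated null males, with the WT groups between -4.95 and -3.91. In castrated null males Wif1 was not well above background on any array. The null female means share the sham arrays with the comparison above, so these levels are a description.

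**Figure D5:**
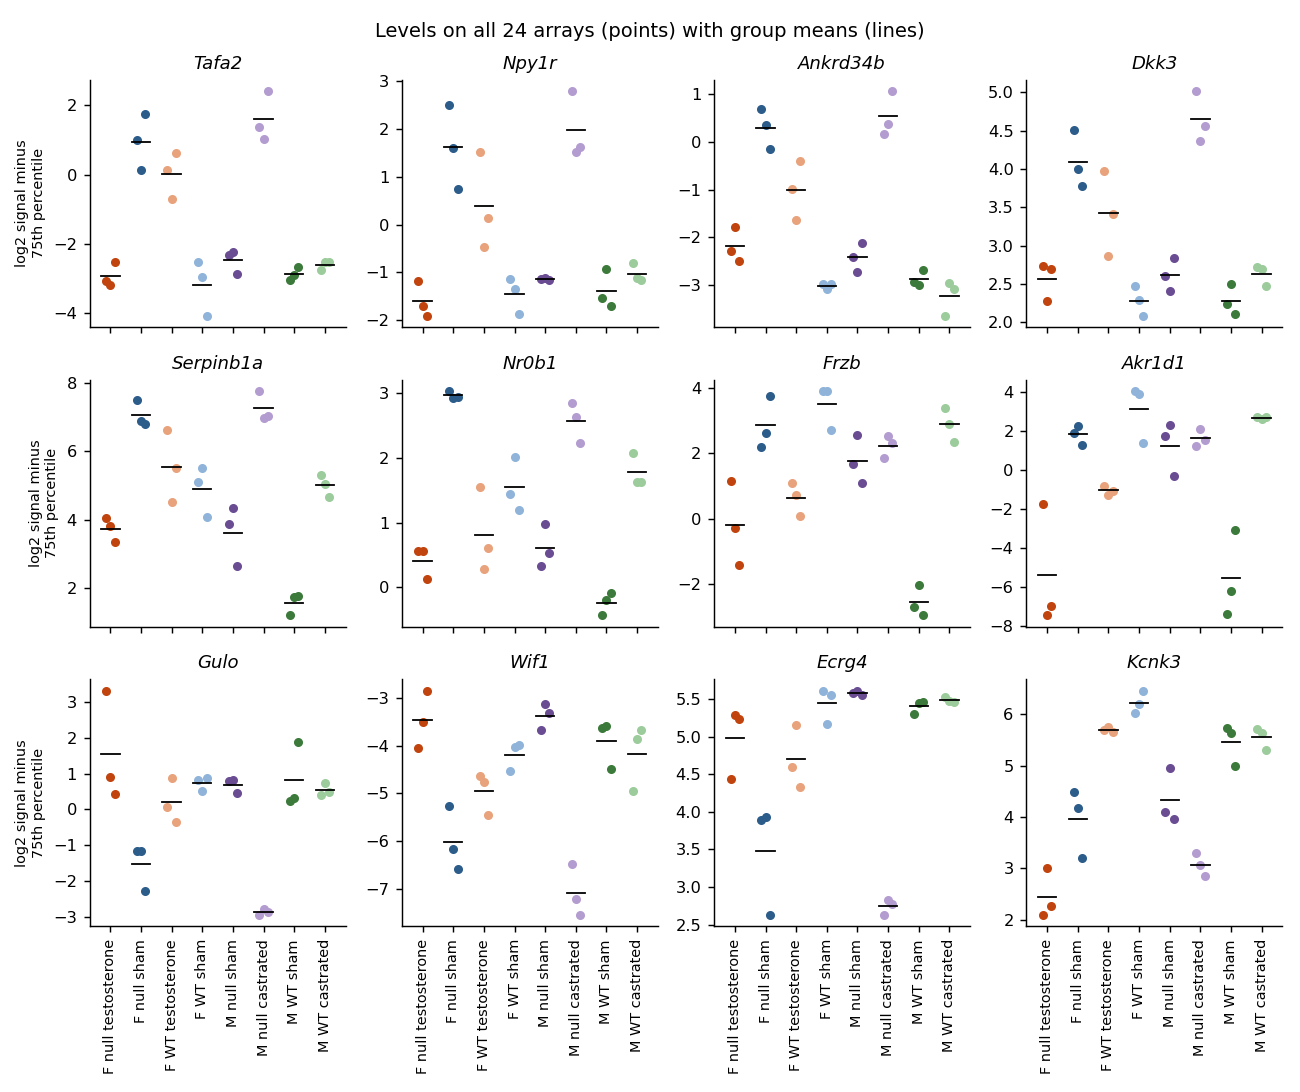
Levels of 12 genes on all 24 arrays (points) with the mean of each group (line), groups from left to right as null females, WT females, null males and WT males, each with the androgen-exposed group first. Tafa2, Npy1r, Ankrd34b and Dkk3 have their highest means in sham null females, castrated null males and testosterone-injected WT females. Frzb and Akr1d1 have their lowest mean in sham WT males, followed by testosterone-treated null females.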

How the data were processed

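RNA of 24 adrenal samples in 8 groups of 3 was measured on one-colour Agilent arrays. Signals are intensity values that, per the file headers, the authors' scanner software (Feature Extraction 10.7.3.1, probe positions on mm9) had background-subtracted and detrended. The authors also deposited a log2 value table, whose columns were already normalized between arrays and which served as an alternative. From the deposited intensity, control and outlier spots were removed, spots of a probe averaged, and log2 signal minus each array's 75th percentile taken. Probes well above background on at least 3 of 24 arrays were kept (36832), and of several probes of a gene the one with the highest mean (31086 features, 19406 with a symbol, updated through RefSeq accessions). The arrays had 57.0% to 64.7% of spots well above background, and the number of arrays limits the precision.

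One limma 3.58.1 fit (R 4.3.3) of the 8 group means on all 24 arrays gave moderated tests with Benjamini-Hochberg adjustment over all features. It leaves 16 residual degrees of freedom, and it was checked on simulated data. A probe not above background on any array of a group has only a bound: the other group's mean was set against the lowest signal among probes well above background on each array, or the probe's own value where that was higher. Replicate numbers of null females coincide with slides. Same-numbered testosterone and sham arrays deviated together from their group means over all features (r = 0.214, 0.227 and 0.384). Differently numbered ones had r between -0.311 and 0.081. The deviations in a group cancel out, so positive values for same-numbered arrays push the others down. A shared slide and a pairing of the samples themselves cannot be told apart here. The alternatives were other background corrections, normalizations, filters, sample sets, blocks, weights and covariates, and leaving out arrays.

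Named genes are Kcnk3, the 20 largest rises and falls among called, non-overlapping features with an established symbol, called members of each of 36 gene lists or the 2 with the smallest p, and the 10 features with the smallest p in the difference between responses. Kcnk9, Bdnf, Akr1c18, Pik3c2g, Sfrp1, Sfrp4, Wnt4, Abhd1, Cyp2c50 and the smaller falls were named after their values were seen. So were Cxcr4 and Crym, which were called only in alternative fits. The members and lists were chosen with earlier results of these data known. Lists are described by counts and medians, with no set test. With 0.209% of all features called, no call is the usual result in a short list. Levels were compared within a probe only. Figures were drawn with Python 3.11.15. One item is not reported here.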

Additional observations from a re-analysis of the deposited data

Results flagged for a closer look

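The responses to testosterone of null and WT females differed, by the test of the difference itself (limma, adjusted p under 0.05), for 22 named genes, given here as null minus WT on the log2 scale. More negative in null females were Macc1 (-7.38), Tafa2 (-7.08), Npy1r (-5.05), Ankrd34b (-4.48), Gm2044 (-4.16), Cma1 (-4.13), Serpinb1a (-3.98), P3h2 (-3.36), Ndnf (-3.24), Gm4912 (-2.98), Wipf3 (-2.96), DXBay18 (-2.86), Gm8617 (-2.85), Gm5640 (-2.81), Rcan2 (-2.78), Hebp2 (-2.66), Dkk3 (-2.66), Pxylp1 (-2.32) and Mast2 (-1.48). More positive were Ecrg4 (2.25), Tafa4 (2.58) and Wif1 (3.31). Some of these rest on a group with no array well above background, so their sizes are uncertain. Among them are Macc1 (testosterone null and sham WT females), Cma1 (sham WT females) and Tafa4 (sham null females). All 3 testosterone-injected WT female arrays and 2 of the 3 sham WT female arrays carried Y-linked transcripts. The testosterone-injected ones also held Abhd1 at the raised levels given above, which were not limited to arrays with opposing sex-linked signal. The part of these signals in these differences was not tested. Replicate 3 of both WT female groups had an RNA integrity number of 3, the lowest in the series. No group holds more than 3 arrays, so none was tested for single outlying samples.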

How the results depend on the processing

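None of the 56 called genes with a symbol changed sign in any of the settings, at most 19, in which it was fitted. This was largely fixed in advance. The arrays of the groups do not overlap for any of the 65 calls, so leaving out 1 array could not reverse a sign. Fits that alter only the estimated spread keep the same difference. The unchanged signs are therefore no sign of stability. Sizes of dim genes did change over the settings. The difference ranged from -2.57 to -0.73 for Ndnf, from -3.42 to -0.70 for Cma1 and from -2.52 to -0.30 for Gadl1. It ranged from 0.86 to 2.92 for Wif1 and from 0.42 to 2.79 for Tafa4. Brighter genes such as Nr0b1 (-2.63 to -2.42) and Serpinb1a (-3.49 to -3.11) varied less. The medians of some gene lists did change sign without the arrays with liver transcripts: T and B cell genes (-0.01, against 0.79 with all arrays), steroid-metabolising enzymes (-0.02, against 0.19), steroid synthesis (0.02, against -0.12) and cell cycle (-0.01, against 0.10) among them. The 65 calls in null females became 34 with no filter on dim probes, 0 with only the 6 arrays compared, 150 with the slide as a block, 121 with the replicate block, 193 with array weights and 40 without the 9 arrays of opposing sex-linked signal (chosen after seeing the data). Leaving out 1 array gave 19 to 69 calls: 19 without sham array 1, 21 without sham array 2 and 24 without testosterone array 3. Of the 56 called genes, 56 were kept under both blocks, 40 with the RNA integrity covariate and 36 without the arrays with liver transcripts, and 16 to 35 with 1 array left out. Only 11 of the 56 were called whichever of the 6 arrays was left out, and Gulo, Wif1, Frzb and Dkk3 were not among them. Ankrd34b, Npy1r, Nr0b1, P3h2, Rwdd2a, Serpinb1a and Tafa2 were called in 18 of 19 settings, all but the fit of 6 arrays. The 28 calls in WT females became 95 with normexp and quantile normalization, 44 with quantile normalization, 85 with the deposited table, 7 with no filter, 48 with the filter on all 24 arrays, 0 with their own arrays only, 150 with the slide block, 84 with the replicate block, 66 with the RNA integrity covariate and 97 with array weights, and 4 to 45 with 1 array left out (6 without testosterone array 2, 7 without testosterone array 3, 11 without sham array 1, 4 without sham array 2 and 45 without sham array 3). The 313 calls in null males became 197 with their own arrays, 548 with the slide block and 1552 with array weights, and 134 to 214 with 1 array left out. The 30 differences between responses became 3 with their own arrays, 46 with the slide block and 71 with array weights, and 19 to 50 with 1 array left out. Fits with fewer arrays have fewer degrees of freedom, and the cause of the other changes was not tested. Of 683 list medians under the alternatives, 29 moved by more than the standard deviation of that list's median difference over the 3 slides. This limit is widest where 1 array stands apart, so the count is no measure of stability. The liver list had slide medians of 8.07, 1.97 and -1.38. Its shift from 2.88 to 0.54 without the arrays with liver transcripts lay within the limit.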

Other observations

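Leaving out the 2 arrays with liver transcripts (testosterone array 1 and one sham WT male array) raised the number of called features to 73, of which 30 rose, and 42 were shared with the 65. Cxcr4, the receptor of the chemokine CXCL12, differed by 2.02 in that fit (limma adjusted p = 0.0087), against 1.52 (adjusted p = 0.142) with all arrays. With the slide as a block, Crym, a thyroid hormone-binding protein of the cytoplasm, differed by 1.83 (adjusted p = 0.043), against an adjusted p of 0.083 without it, and it differed by 4.20 in null males (adjusted p = 3.1e-05). Macrophage genes summed to 77.1, 60.1 and 56.4 on the testosterone arrays, against 77.9, 68.0 and 137 on the sham arrays, and red cell genes to 798, 742 and 856, against 706, 454 and 1728, both highest on sham array 3. Among the features that stood furthest above the other testosterone arrays on testosterone array 1 was the liver cytochrome Cyp2c50, at 4.28, against -6.84 and -7.17 on testosterone arrays 2 and 3.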
